A study of Homo sapiens with 32 samples.

Results

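The angiotensin II type 1 receptor (AT1R, gene AGTR1) and the proteins that sit next to it in the cell were followed as RNA in HEK293 cells, a human embryonic kidney line that was transiently transfected with an AT1R expression plasmid. The 10 genes were chosen by name as the rows of both count tables that hold the receptors AGTR1 and AGTR2, the receptor-associated protein AGTRAP, the G protein alpha subunits GNAQ, GNA11, GNA12 and GNA13, the arrestins ARRB1 and ARRB2, and the receptor kinase ADRBK1, which is now named GRK2. All 10 genes were found among the 57773 rows of each table. Cells of every group carried the plasmid and were kept without serum. They then received no ligand (control), 1 nmol/l angiotensin II (AII), 10 µg/l epidermal growth factor (EGF), or both (AII+EGF) for 6 h or 24 h. Transient transfection reaches only part of the cells, and fewer cells with the plasmid and less receptor RNA per cell cannot be told apart in these bulk libraries. A receptor expressed from a plasmid in HEK293 cells is a model of the receptor, not of a tissue in which it occurs naturally.

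Each group held 4 libraries, with the exception of AII+EGF at 24 h, where 3 libraries were used and 1 library of the 32 in the labels was not analysed here. Total counts lay between 3881841 and 8540815 per library at 6 h and between 6646227 and 33070903 at 24 h. Protein-coding genes took 81.4 to 84.7% of the counts at 6 h and 20.8 to 63.4% at 24 h, when the small nuclear RNA U1 alone took 8.90 to 57.2% and more than 50% in 2 libraries. The biological coefficient of variation was 10.6% at 6 h and 29.1% at 24 h, so that the later table resolves only larger differences. The HEK293 markers VIM, NEFL and NEFM were present, with VIM at 298 to 322 FPM (fragments per 1000000 counted, after scaling) in 6-h controls, whereas PAX2 stayed at 10 counts or fewer in every library. Of 7 HEK293 markers tested, NEFM rose with EGF at 6 h and 24 h (0.60 and 1.16 log2). With AII+EGF at 6 h, NEFM (0.73 log2) and KRT18 (0.91 log2) rose. In AII+EGF against AII, NEFM was higher at 6 h and 24 h (0.77 and 0.85 log2), and KRT18 at 6 h (0.77 log2). CDH2 was higher there at 6 h by 0.33 log2, without a full call. Full calls in the same 3 comparisons took 1.73%, 1.95% and 1.87% of all genes at 6 h. At 24 h they took 0.0316% (EGF) and 0.0406% (AII+EGF against AII). The part of these marker changes in the results was not tested. Of 9 marker genes of other cell types in the table, 8 had at most 7 counts in any library, and the smooth muscle gene MYH11 had 13.9 to 18.3 FPM in 6-h controls. EGR1, an early response gene of EGF, lay at 1.39 to 2.87 FPM in control and at 47.8 to 54.7 FPM in EGF libraries at 6 h. At 24 h EGR1 lay at 3.72 to 5.95 and 25.3 to 33.0 FPM, without overlap at either time. Of all genes tested, 6.61% at 6 h and 2.35% at 24 h lay entirely higher in EGF than in control.

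AT1R is a receptor with 7 membrane-spanning helices that binds the octapeptide AII and raises vascular tone, aldosterone secretion and renal sodium retention. The occupied receptor activates Gq and G11, which switch on phospholipase C beta and thereby calcium release and protein kinase C, and in many cells also G12 and G13. Receptor kinases then phosphorylate the receptor, arrestins bind, uncouple it from the G proteins and guide it into clathrin-coated pits, and AGTRAP promotes its internalisation.

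AGTR1 RNA at 6 h was higher in the libraries with AII than in those without, when both EGF states were tested together as a single value. In the edgeR fit over all genes, the separate differences without and with EGF did not pass (adjusted p = 0.987 and 0.093). AGTR1 lies on chromosome 3 from 148415571 to 148460795 of the plus strand (GRCh37), and its main transcript has 2324 bases in 3 exons. Reads of the plasmid insert and of the chromosomal gene were counted together, hence the values are the sum of both. In control the 4 libraries had 950.1, 1156, 1086 and 1190.5 FPM at 6 h. In AII they had 1319, 1318, 1399 and 1515 FPM. All 4 AII libraries lay above all 4 controls, a separation in this direction that 0.978% of the genes tested showed. In EGF the values were 1236, 1023, 1071 and 1059 FPM, which overlapped with the controls although the first EGF library lay above all of them. In AII+EGF they were 1414, 1451, 1568 and 1554 FPM. All AII+EGF libraries lay above all EGF libraries (2.85% of the genes tested separated this way) and above all controls (6.77% of the genes).

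**Figure D1:**
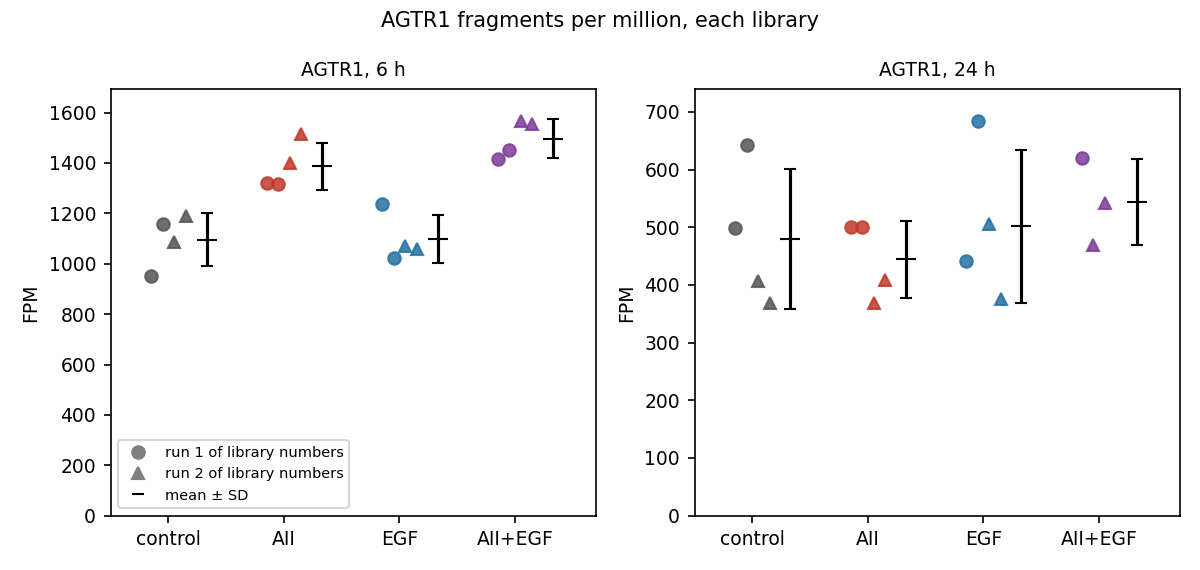
AGTR1 in FPM (y axis from 0) in each library by condition at 6 h (left) and 24 h (right), with circles and triangles for both runs of library numbers in the labels and black bars for mean ± SD. At 6 h the AII and AII+EGF libraries lie between 1318 and 1568 FPM and the others between 950.1 and 1236 FPM, while at 24 h the conditions overlap.

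Taken as a single value, AGTR1 was 1.32-fold higher with than without AII at 6 h (0.40 on the log2 scale, 8 against 8 libraries, two-sided exact permutation test within EGF status, p = 0.000408, the smallest p that the 4900 permutations can give). Adjusted over the 4 tests of AGTR1 (AII and EGF, 6 h and 24 h), this exact permutation p was 0.00163. The adjustment does not cover the choice of AGTR1, the only gene tested in this way, which was made with earlier results of these data known. With and without EGF, the difference at 6 h was 0.06 log2 (exact permutation p = 0.322). Within each run of library numbers the same separation held. AII exceeded control by 0.33 and 0.36 log2 in the first and second run, and AII+EGF exceeded EGF by 0.35 and 0.55 log2, with 2 libraries a condition.

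In the edgeR fit at 6 h, across all 18618 genes tested, AGTR1 had the lowest p in both comparisons that differ only by AII. The unadjusted p was 0.000173 in AII against control and 5.17e-06 in AII+EGF against EGF. These comparisons share no library, but both come from 1 fit with a common estimate of spread, so they are not independent. AII against control gave 0.34 log2 (SE 0.08, adjusted p = 0.987), and the 95% interval ran from 0.18 to 0.50. In this comparison 0% of genes passed the false discovery rate (FDR) of 0.05. An unadjusted p below 0.05 was found for 845 genes (4.54% of all tested), of which 2, AGTR1 and ARRB1, are genes of the receptor group. AII+EGF against EGF gave 0.45 log2 (SE 0.08, adjusted p = 0.093), again with 0% of genes past the FDR, and AGTR1 and GNA11 below an unadjusted p of 0.05, as were 7.26% of all genes. With DESeq2 on the same counts, 1 gene passed in AII+EGF against EGF, which was AGTR1 (adjusted p = 0.000245), and 0 passed in AII against control (AGTR1 adjusted p = 0.319). With genes of low counts retained, AGTR1 passed in both (adjusted p = 0.0019 and 9.32e-07 with edgeR). With all limits, that fit called 17 and 10 genes over the whole table. The reported fit and all other alternatives called 0 in both comparisons. AGTR1 also passed in AII+EGF against control (0.45 log2, SE 0.08, 1.37-fold, adjusted p = 0.000498), a comparison in which 6.1% of all genes passed. None of these differences reached the 1.5-fold limit that, together with the FDR and a level over 5 FPM, was used for a full call. EGF against control was at 0.00 log2 with an interval from -0.16 to 0.16, and AII+EGF against AII at 0.11 log2 with an interval from -0.05 to 0.27. The interaction of AII and EGF, i.e. the extent to which the AII difference changed in the presence of EGF, was 0.11 log2 (SE 0.11, adjusted p = 0.790).

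At 24 h the AGTR1 values of the conditions overlapped. The controls had 499.7, 641.9, 406.2 and 369.4 FPM. AII libraries had 500.9, 500.5, 368.9 and 408.2 FPM, and EGF libraries 442.3, 685.0, 504.9 and 376.4 FPM. The 3 AII+EGF libraries had 619.9, 469.6 and 542.9 FPM. The 7 libraries of the first run of library numbers had 442.3 to 685.0 FPM (median 500.9) and the 8 of the second had 368.9 to 542.9 FPM (median 407). Columns of the first run were all named filtered, and of the second only the AII+EGF library with 469.6 FPM. Run and filtering can therefore hardly be told apart at 24 h. AGTR1 also went with the share of protein-coding counts over the 15 libraries (Pearson r = 0.68, a description, since the libraries share run and composition), and at 6 h this r was 0.14. With and without AII, AGTR1 differed by 0.03 log2 (exact permutation p = 0.861), and with and without EGF by 0.18 log2 (exact permutation p = 0.246). The edgeR differences from control were -0.11 log2 for AII (interval -0.49 to 0.27), 0.07 for EGF and 0.18 for AII+EGF (interval -0.23 to 0.60). The interval for AII did not hold the 6-h value of 0.34. AII+EGF against EGF was at 0.12 log2 (interval -0.30 to 0.53), which did hold the 6-h value of 0.45. The change of the AII difference from 6 h to 24 h was tested in 1 fit of all 31 libraries and was -0.44 log2 (SE 0.21, adjusted p = 1.00), so a loss of the difference with time was not shown.

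Expressed as a share of all protein-coding counts, AGTR1 took 0.112 to 0.183% at 6 h and 0.0862 to 0.157% at 24 h. It ranked between place 7 and place 47 of 20327 protein-coding genes at 6 h, and between place 22 and place 92 at 24 h. Per transcript length, its median was 549 FPKM at 6 h, far above all other genes of the group. All AGTR1 values per length use the chromosomal transcript, as the length of the plasmid transcript was not known here.

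AGTR2, the second AII receptor, was at 0 counts in 30 of 31 libraries and at 1 count in 1 EGF library at 24 h. A count of 0 allows up to 3 counts, which corresponds to 0.159 to 0.787 FPM depending on the library (counting error only). AGTR2 was therefore below detection at this depth and did not enter the fits, so that 9 of the 10 genes were tested at each time. AGTRAP lay between 14.7 and 23.8 FPM at 6 h and between 5.88 and 12.8 FPM at 24 h. Its conditions overlapped throughout, and it passed in none of the comparisons.

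**Figure D2:**
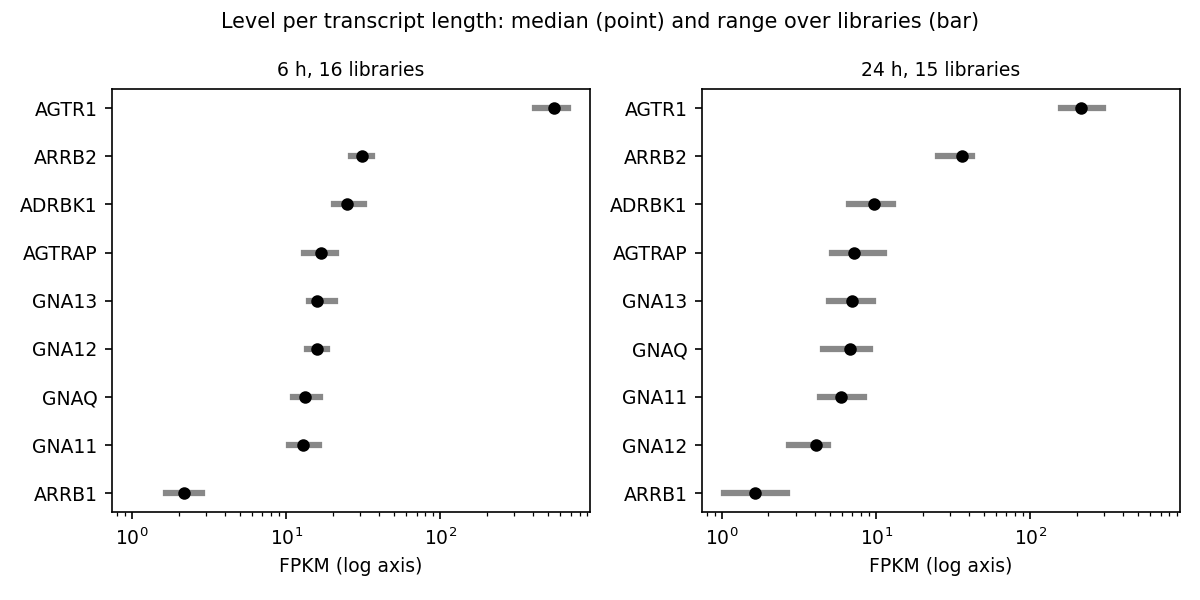
Median level (point) and range over libraries (bar) of 9 genes as FPM per kilobase of main transcript (FPKM, log axis) at 6 h (left, 16 libraries) and 24 h (right, 15 libraries); AGTR2 was at or near 0 and is not drawn. AGTR1 stands 18.6-fold above ARRB2 at 6 h, and ARRB1 is lowest.

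Ordered by level per length at 6 h, AGTR1 was followed by ARRB2 (median 31.0 FPKM) and ADRBK1 (24.8 FPKM). AGTRAP (16.9), GNA13 (15.8) and GNA12 (15.7 FPKM) could not be ordered, as AGTRAP exceeded GNA13 in 10 of 16 libraries and GNA13 exceeded GNA12 in 8 of 16. GNAQ (13.2 FPKM) and GNA11 (12.8 FPKM) did not differ beyond their spread either, with GNAQ the higher gene in 6 of 16 libraries. ARRB1 was lowest of the detected genes (2.16 FPKM) and lay below GNA11 in all 16 libraries. AGTR1 exceeded ARRB2 in every library, by 18.6-fold in the median, and ARRB2 exceeded ADRBK1 in 14 of 16. This order depends on the length used. With the union of all annotated exons in place of the main transcript, AGTR1 stayed first and ARRB1 last of the detected genes, but ARRB2 (12.9 FPKM) came after GNA13 (15.4) and GNAQ (13.03 FPKM). At 24 h, AGTR1 (median 215 FPKM) again led ARRB2 (36.0 FPKM) in all 15 libraries, by 5.61-fold, and ARRB1 (1.64 FPKM) was again last.

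Ratios within a library do not depend on library size, yet time point and table cannot be told apart. ADRBK1 stood to ARRB2 as 0.645 to 1.12 per length at 6 h and as 0.200 to 0.428 at 24 h, without overlap. How many gene pairs separate in this way was not counted, for this or any ratio below. AGTR1 was 36.4- to 46.6-fold above GNAQ per length of the chromosomal transcripts in 6-h controls. This is a ratio of RNA over cells with and without plasmid, not of proteins.

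Of the 4 alpha subunits in the group, GNAQ rose with EGF at 6 h. It encodes the alpha subunit of Gq and lies on chromosome 9 from 80331013 to 80646727 of the minus strand. The 6-h controls had 77.2, 80.1, 77.2 and 75.6 FPM. The EGF libraries had 104, 97.6, 113 and 99.3 FPM. All EGF libraries lay above all controls, a separation shown by 6.61% of genes in this comparison. The difference was 0.42 log2 (SE 0.08, 1.34-fold, 95% interval 0.25 to 0.58, adjusted p = 0.00202), and GNAQ was the 1 gene of the group to pass the FDR, as did 5.97% of all genes. In the first and second run of library numbers it was 0.36 and 0.47 log2.

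In AII+EGF, GNAQ was at 93.8, 91.4, 95.6 and 90.4 FPM, above all controls and below all EGF libraries (2.73% of genes lay entirely lower in that comparison). Against control this was 0.26 log2 (SE 0.08, adjusted p = 0.0576), which passed with DESeq2 (adjusted p = 0.0362) and when the run of library numbers was a term (adjusted p = 0.0483). Against EGF it was -0.16 log2 (SE 0.08, adjusted p = 0.683). AII alone gave 84.8, 77.0, 77.4 and 100.2 FPM and overlapped with control. The processed pseudogene GNAQP1, whose sequence resembles GNAQ, had 1 to 10 counts at 6 h, equal to 0.299 to 1.53% of the GNAQ counts, and 2.25 to 6.78% at 24 h.

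At 24 h the GNAQ values of EGF libraries were 31.2, 61.9, 43.6 and 35.0 FPM against 53.3, 57.3, 46.5 and 46.7 FPM in control. They overlapped, and the difference was -0.24 log2 (SE 0.19, adjusted p = 0.804). From 6 h to 24 h the EGF difference of GNAQ changed by -0.66 log2 (SE 0.22, adjusted p = 0.249). Without the second EGF library at 24 h, the one with 61.9 FPM, this change was -0.89 log2 (adjusted p = 0.0434). GNAQ levels at 24 h went with the share of protein-coding counts (r = 0.78, 15 libraries), and the part of that share in the result was not tested.

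GNA11 encodes the close relative of Gq and overlaps antisense RNAs that cannot be separated where strand was not used for counting. It ranged from 43.8 to 68.6 FPM at 6 h. In EGF libraries it lay between 48.1 and 57.6 FPM, within the control range of 47.3 to 59.9 FPM. The ratio of GNAQ to GNA11 per length was 0.769 to 0.993 in control and 1.05 to 1.34 in EGF, without overlap, and 0.802 to 1.04 in AII+EGF. It uses the same GNAQ values, and the share of gene pairs that separate so was not counted. The GNA11 difference between AII+EGF and EGF was 0.26 log2 (SE 0.11, adjusted p = 0.677), and the conditions overlapped.

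**Figure D3:**
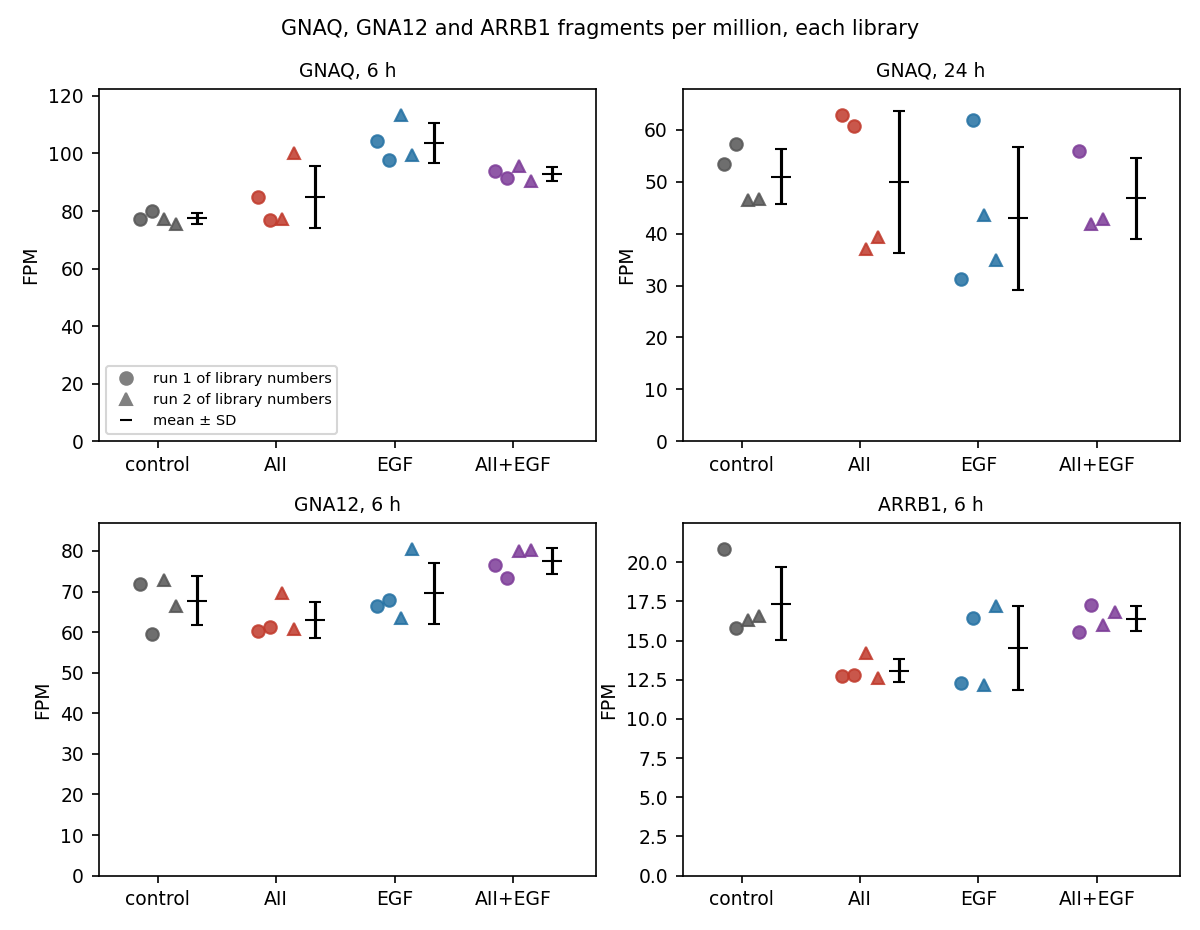
GNAQ at 6 h and 24 h, GNA12 at 6 h and ARRB1 at 6 h in FPM (y axes from 0) in each library by condition, with circles and triangles for both runs of library numbers and black bars for mean ± SD. GNAQ of EGF libraries at 6 h (97.6 to 113 FPM) lies above control (75.6 to 80.1 FPM), and ARRB1 of AII libraries (12.6 to 14.2 FPM) lies below control (15.8 to 20.8 FPM).

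GNA12 encodes the alpha subunit of G12 and lies on chromosome 7 from 2767739 to 2883942 of the minus strand. AII libraries had 60.3, 61.3, 69.5 and 60.9 FPM at 6 h, and AII+EGF libraries had 76.5, 73.4, 80.1 and 80.2 FPM. All AII+EGF libraries lay above all AII libraries, as was the case for 7.12% of the genes tested, while 5.64% lay entirely lower. The difference was 0.30 log2 (SE 0.09, 1.23-fold, adjusted p = 0.0422), and GNA12 was the 1 gene of the group to pass the FDR, as did 5.93% of all genes. It was 0.30 log2 in each run of library numbers. Without any 1 of 6 of these 8 libraries (AII 1, 2 or 4, or AII+EGF 1, 3 or 4), GNA12 no longer passed the FDR, with adjusted p up to 0.130. Control (71.9, 59.7, 72.8 and 66.5 FPM) overlapped with AII and lay below all AII+EGF libraries, as did 6.77% of the genes. AII+EGF against control was 0.20 log2 (SE 0.09, adjusted p = 0.200).

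GNA13, which encodes the alpha subunit of G13, ranged from 87.2 to 129 FPM at 6 h and from 30.9 to 59.8 FPM at 24 h, and its conditions overlapped. The ratio of GNA13 to GNA12 per length was 0.974 to 1.48 in AII and 0.848 to 0.912 in AII+EGF at 6 h, without overlap. It uses the same GNA12 values, and the share of gene pairs that separate so was not counted.

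ADRBK1, the kinase that phosphorylates agonist-occupied receptors, ranged from 69.0 to 108 FPM at 6 h and from 22.6 to 43.7 FPM at 24 h. Its conditions overlapped at both times. ARRB2, which encodes arrestin beta 2, ranged from 46.7 to 63.6 FPM at 6 h and overlapped as well. At 24 h, ARRB2 had 64.0, 63.9 and 74.3 FPM in AII+EGF and 44.6, 52.7, 64.2 and 59.7 FPM in control, a difference of 0.29 log2 (SE 0.13, adjusted p = 0.906).

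ARRB1, which encodes arrestin beta 1, was the gene with the lowest counts of those tested (48 to 142 per library at 6 h). It lies on chromosome 11 from 74971166 to 75062749 of the minus strand. Antisense RNAs and another annotated gene of the same strand overlap its exons. Its 6-h controls had 20.8, 15.8, 16.3 and 16.5 FPM. Its AII libraries had 12.7, 12.8, 14.2 and 12.6 FPM, all below all controls, as were 1.16% of the genes tested. The difference was -0.39 log2 (SE 0.14, adjusted p = 0.987) and thus did not pass. AII+EGF libraries had 15.6, 17.3, 15.96 and 16.8 FPM, above all AII libraries (7.12% of genes separated this way). The interaction was 0.56 log2 (SE 0.19, adjusted p = 0.592). In this test 0% of genes passed with edgeR, and 1 gene, which is not of the group, with DESeq2. With edgeR, 1491 genes (8.01% of all tested) had an unadjusted p below 0.05, ARRB1, GNAQ and GNA12 included. The ratio of ARRB2 to ARRB1 per length was 10.0 to 14.7 in control and 15.3 to 19.1 in AII, without overlap. It uses the same ARRB1 values, so it adds no separate evidence to the difference that did not pass. The share of gene pairs that separate so was not counted. At 24 h ARRB1 was 0.54 log2 above control both in EGF (SE 0.25, adjusted p = 0.558) and in AII+EGF (SE 0.26, adjusted p = 0.929). The EGF values of 19.3, 7.66, 11.6 and 16.9 FPM overlapped with the controls of 8.11, 7.55, 13.9 and 8.16 FPM. AII+EGF at 24 h, with 12.9, 14.8 and 13.6 FPM, lay above all AII libraries (3.81% of genes).

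**Figure D4:**
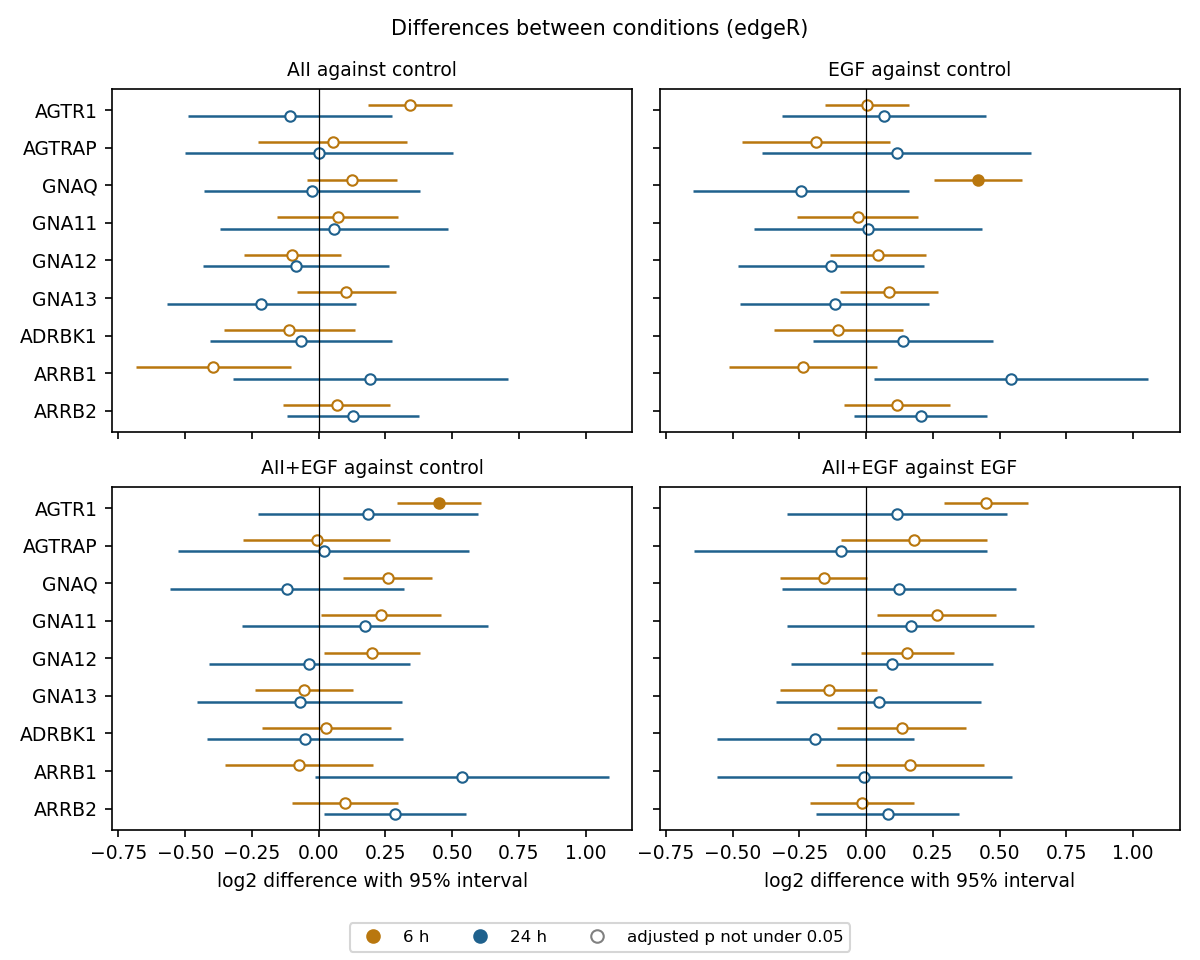
Log2 differences of 9 genes with 95% intervals from edgeR in 4 comparisons at 6 h and 24 h, with filled points where the adjusted p was below 0.05. The filled points are GNAQ in EGF against control (0.42) and AGTR1 in AII+EGF against control (0.45), both at 6 h.

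Counted over the group with edgeR at 6 h, 1 of 9 genes passed the FDR in EGF against control, beside 5.97% of all genes. Likewise 1 of 9 passed in AII+EGF against control (6.1% of all genes) and in AII+EGF against AII (5.93%). In AII against control, in AII+EGF against EGF and in the interaction, 0 of 9 and 0% of all genes passed. With DESeq2, 2 of 9 (AGTR1 and GNAQ) passed in AII+EGF against control and 1 of 9 (AGTR1) in AII+EGF against EGF. The other counts of the group were those of edgeR. Of all 18618 genes, DESeq2 passed 1364 in EGF against control, 1298 in AII+EGF against control and 1307 in AII+EGF against AII. It passed 1 gene each in AII+EGF against EGF and in the interaction. With the limits of fold and level added, 0 of 9 were called in any comparison, where 1.73% (EGF), 1.95% (AII+EGF) and 1.87% (AII+EGF against AII) of all genes were called at 6 h. At 24 h, 0 of 9 passed in any comparison with edgeR or with DESeq2. With edgeR, 0.0316% (EGF against control), 0.0271% (AII+EGF against control) and 0.0451% (AII+EGF against AII, 0.0406% with all limits) of all genes passed, equal to 7, 6 and 10 genes, where DESeq2 passed 97, 45 and 43 genes. Unadjusted p below 0.05 occurred at 24 h for ARRB1 in EGF and for ARRB2 in AII+EGF against control, comparisons in which 8.48% and 5.4% of all genes had such a p. In the fit of both times, 0 of 9 genes changed their difference from control with edgeR or DESeq2, as compared with 0.173% (EGF) and 0.123% (AII+EGF) of all genes with edgeR. These were 38 and 27 genes, and 117 and 67 genes with DESeq2.

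The enzymes and proteins downstream of the receptor were taken as lists. Over all lists at 6 h, 5 of 75 genes tested passed the FDR in EGF against control with edgeR. In AII+EGF against control 4 passed, and in AII+EGF against AII 6 passed. Beside these, 5.97%, 6.1% and 5.93% of all genes passed, so the lists as a whole lay near the share of all genes. Of 15 Gq/11 effectors, 14 were tested, and PRKCD, a diacylglycerol-dependent protein kinase C, was called. PRKCD lay at 40.2 to 47.1 FPM in control, 39.9 to 47.9 in AII, 55.8 to 78.4 in EGF and 70.7 to 79.3 FPM in AII+EGF at 6 h. It rose by 0.69 log2 with EGF (SE 0.10, adjusted p = 8.05e-05) and by 0.76 log2 with AII+EGF (SE 0.10, adjusted p = 2.19e-05). Further members past the FDR, named here after their values were seen, were ITPR1, an IP3-gated calcium channel, which fell by 0.37 log2 with EGF, and PRKCA, a calcium-dependent protein kinase C, which rose by 0.28 log2 with AII+EGF. The median difference of the list was -0.05 log2 with EGF and 0.02 with AII+EGF, beside -0.01 over all genes in both comparisons.

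Of 12 G12/13 effectors, all were tested and 0 passed against control with edgeR or DESeq2, with 3 (EGF) and 5 (AII+EGF) below an unadjusted p of 0.05 at 6 h, beside 20.2% and 18.9% of all genes. The most abundant per length in control were the small GTPase RHOA (282 FPM, SD 28.6), the actin-severing protein CFL1 (149 FPM, SD 15.2) and RHOB (161 FPM, SD 40.0; n = 4 each). RHOC was 0.45 log2 higher in AII+EGF than in AII (adjusted p = 0.0288).

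Of 28 other G protein subunits and chaperones, 22 were tested. GNAL, the alpha subunit of Golf, was at 18.8 to 22.99 FPM in control, 14.7 to 19.7 in AII, 24.8 to 28.9 in EGF and 29.6 to 34.4 FPM in AII+EGF. GNAL rose by 0.42 log2 with EGF (adjusted p = 0.0216), by 0.65 log2 with AII+EGF (adjusted p = 0.000513), and was 0.89 log2 higher in AII+EGF than in AII (adjusted p = 1.66e-05). The gamma subunit GNG12 passed in the same comparisons, with 0.51, 0.39 and 0.42 log2. GNG2 was lower in AII+EGF than in AII by -1.33 log2 (SE 0.36, adjusted p = 0.0294). GNG2 met the FDR and the fold limit but was not fully called, so its level did not exceed the FPM limit. The Gq relatives GNA14 and GNA15 were too low to be tested.

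Of 19 receptor kinases, arrestins and endocytosis genes, 16 were tested at 6 h and 0 passed in any comparison with edgeR or DESeq2, with 5 below an unadjusted p of 0.05 in AII+EGF against AII (19.6% of all genes) and 0 to 2 in the others (4.54 to 20.2% of all genes). The clathrin adaptor subunits AP2M1 (199 FPM, SD 15.4), AP2S1 (57.2 FPM, SD 11.4) and AP2B1 (362 FPM, SD 26.6) were most abundant per length in control (n = 4). Of 18 renin-angiotensin enzymes and other angiotensin receptors, 11 were tested. The most abundant per length were the peptidase THOP1, the prorenin receptor ATP6AP2 and the carboxypeptidase CTSA. ACE, which forms AII, had 5 to 16 counts in control and 17 to 38 in EGF libraries and was 1.14 log2 higher (adjusted p = 0.0335), at a level of at most 5.37 FPM. The aminopeptidase LNPEP was lower in AII+EGF than in AII by -0.30 log2 (adjusted p = 0.0182). AGT, the precursor of AII, had at most 2 counts and MAS1 had 0 counts in every library at 6 h. In AII against control and in AII+EGF against EGF at 6 h, 0 of the 75 list genes tested passed with edgeR or DESeq2, and 2 and 10 of them had an unadjusted p below 0.05, beside 4.54% and 7.26% of all genes. At 24 h, 0 of 77 passed in any comparison with either tool, and the number with an unadjusted p below 0.05 ranged from 0 to 6, beside 2.37 to 8.48% of all genes.

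The 5 genes whose log2 FPM went most closely with AGTR1 over the 16 libraries at 6 h, out of 13000 genes compared, were WBP1 (r = 0.79), ITFG3 (0.77), SLFN13 (0.76), SLC46A1 (0.75) and MCU (0.74). Over the 15 libraries at 24 h the same pairs had r = -0.46, -0.83, 0.01, 0.25 and 0.45, so that the order at 6 h did not carry over. Among the group itself, GNA11 came closest to AGTR1 at 6 h (r = 0.43). At 24 h GNA13 (r = 0.86) and GNAQ (0.67) went with AGTR1 and AGTRAP went against it (-0.63). The same genes went with or against the share of protein-coding counts (GNA13 r = 0.85, AGTRAP r = -0.62), and these correlations describe libraries that share run and composition.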

How the data were processed

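RNA of HEK293 cells was depleted of ribosomal RNA and sequenced as paired ends on a HiSeq2000. The authors trimmed reads with cutadapt 1.8.1 under Trim Galore, aligned them with TopHat2 2.0.14 to hg19 (the series text names HISAT2) and deposited counts per Ensembl gene from featureCounts 1.4.6, 1 table for each time; the strand setting is not given in the sources used here. At 24 h, 8 of 15 columns are named filtered, and what was filtered is not given. All values here start from these deposited raw counts.

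Libraries were scaled by TMM and each time was fitted with edgeR 4.0.16 (quasi-likelihood F test, filterByExpr, 4 conditions, Benjamini-Hochberg adjustment over all genes tested). A full call needed an FDR below 0.05, a fold change over 1.5 and over 5 FPM. SE is the difference divided by the root of F. FPM are counts for each 1000000 of the TMM-scaled library size; FPKM divided these by the MANE Select transcript length of GENCODE v44 on GRCh37 (= hg19). DESeq2 1.42.0 and R 4.3.3 were used for alternatives. AGTR1 was also tested by exact permutation. The labels name libraries of a group as separate samples without saying whether cultures were separate, so p-values measure the spread between libraries. Time effects were tested only in 1 joint fit with raw counts. A run of library numbers is a series of consecutive numbers in the labels.

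The 10 genes and all lists were chosen with earlier results of these data known. All 10 genes were named. From the pathway lists, genes called in any comparison were named, or up to 3 of the highest level per length in control. List genes that passed the FDR without a full call, or that were too low to be tested, were named after their values were seen. Alternatives were other normalization, filter, thresholds, run as a term, protein-coding genes only, each library left out, and U1-rich libraries left out. A robust estimate of the spread was added after the data were seen.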

Additional observations from a re-analysis of the deposited data

Results flagged for a closer look

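In 7 of 63 groups examined (of 4 libraries each, 9 genes), 1 library stood apart from the other 3 by more than Dixon's 95% limit, where chance gives about 5% of groups. At 6 h these were ARRB1 in AII (14.2 FPM, others 12.6 to 12.8), GNA12 in AII (69.5 FPM, others 60.3 to 61.3), ARRB1 in control (20.8 FPM, others 15.8 to 16.5) and GNA13 in EGF (94.6 FPM, others 109 to 111). The first pair came from the same library, the third of AII. At 24 h they were GNA11 in AII (34.8 FPM, others 21.1 to 22.9), from a library with over 50% U1, ARRB1 in control (13.9 FPM, others 7.55 to 8.16) and AGTRAP in EGF (12.8 FPM, others 7.74 to 7.89).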

How the results depend on the processing

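Of 484 refits of 22 member differences, 458 kept direction and side of the threshold, 12 passed where the reported fit did not, 6 no longer passed and 8 changed sign. The 6 were GNA12 in AII+EGF against AII without 1 library. The 8 were AGTR1 differences that had not passed. Without 1 library, EGF against control at 6 h ranged from -0.0568 to 0.0479 log2 (-0.0053 with protein-coding genes only), and at 24 h AII against control ranged from -0.214 to 0.0658, EGF against control from -0.1197 to 0.2399 and AII+EGF against EGF from -3.44e-05 to 0.3027. Leaving out 1 library moved the permutation difference of AGTR1 with AII between 0.3653 and 0.4255 log2 at 6 h and between -0.0361 and 0.1077 at 24 h. With the FDR alone, 1 member in place of 0 was called in EGF against control, AII+EGF against control and AII+EGF against AII at 6 h. Members called in the EGF difference from 6 h to 24 h ranged from 0 to 1 without 1 library. AGTR1 in AII+EGF against EGF at 6 h passed with protein-coding genes only (adjusted p = 0.0273), the robust spread (0.0103), without control replicate 1 (0.0051), without EGF replicate 1 (0.0232) and without AII replicate 4 (0.0499), and reached 0.526 without EGF replicate 3; the cause was not tested. Over all genes with all limits kept, calls in EGF against control ranged from 272 (without EGF replicate 3) to 367 (no filter on low counts) at 6 h and from 2 (without U1-rich libraries, or without 1 of several libraries) to 55 (DESeq2) at 24 h, beside 322 and 7 in the reported fit; the FDR alone gave 1112 at 6 h. No paired analysis was possible because replicate numbers were given here in sample order and pair nothing, and the run of library numbers is a term over several libraries, not a pair. Depth limits ARRB1 (48 counts at the lowest) and AGTR2.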
